A study of Mus musculus with 15 samples.

Results

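The Hox genes of clusters A to D encode homeodomain transcription factors that carry positional identity along the body axis. The members were all probe sets whose mouse gene symbol is Hoxa, Hoxb, Hoxc or Hoxd followed by a number, which gave 39 of the 25206 probe sets measured. Cluster A held 11 of them, cluster B 10, cluster C 9 and cluster D 9. No measured value entered this choice. Expression was measured on 15 one-colour Affymetrix arrays of adipocytes sorted from UCP1/Tomato mice aged 8 to 10 weeks. White adipocytes (WAT, 4 arrays) were UCP1-negative and came from the inguinal fat of untreated mice, and brown adipocytes (BAT, 3 arrays) were UCP1-positive and came from the brown fat of untreated mice. The other groups were UCP1-positive adipocytes from inguinal fat of mice given CL316243, which activates the beta-adrenergic receptor of fat cells (CL, 3 arrays), roscovitine, an inhibitor of cyclin-dependent kinases (RS, 2 arrays), or rosiglitazone, an agonist of the nuclear receptor PPARG (RG, 3 arrays). UCP1 is the mitochondrial protein through which thermogenic fat makes heat. The labels name the cells of CL and RG beige and those of RS brite, call the gate UCP1(GFP) although the mice are UCP1/Tomato, and give no dose, treatment time, sex or batch. No UCP1-positive inguinal cells of untreated mice were measured. Depot therefore cannot be told apart from gate in BAT against WAT, or from treatment in the inguinal UCP1-positive groups against BAT.

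Hox genes lie in 4 chromosomal clusters, and within a cluster the order of the genes follows the order in which they are used along the body axis: low paralog numbers towards the head, high ones towards the tail. Cells taken from different parts of the adult body, fat depots among them, often keep a Hox pattern that reflects where their precursors arose. Brown fat of the mouse lies mainly between the shoulder blades, and inguinal fat lies near the hind limb. Hox proteins bind DNA together with PBX and MEIS cofactors, and Polycomb complexes keep unused parts of the clusters silent.

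RefSeq promoter sequence, in windows of 300 bases that begin upstream of a gene's start and end shortly after it, was used for 22 of the 39 members, in 24 windows on GRCm38.p6. The windows below belong to members whose expression differed between BAT and other groups. Hoxa5 and Hoxc4 were higher in BAT than in WAT, and Hoxa10, shown for both of its starts, was higher in the inguinal UCP1-positive groups than in BAT. The values of Hoxa10 were at background level on every array, as given below. Each is printed 5′ to 3′ on the gene's strand, and capitals mark the motifs searched for. Hoxc8 and Hoxc10 are named only.
Hoxa5, chr6:52204538-52204837, minus strand: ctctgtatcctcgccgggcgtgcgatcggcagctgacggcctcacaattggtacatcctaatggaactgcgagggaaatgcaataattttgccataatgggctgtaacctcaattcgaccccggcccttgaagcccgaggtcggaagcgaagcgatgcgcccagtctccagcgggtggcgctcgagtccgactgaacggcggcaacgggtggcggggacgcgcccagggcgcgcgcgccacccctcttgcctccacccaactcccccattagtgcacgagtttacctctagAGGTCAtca
Hoxc4, chr15:103034145-103034444, plus strand: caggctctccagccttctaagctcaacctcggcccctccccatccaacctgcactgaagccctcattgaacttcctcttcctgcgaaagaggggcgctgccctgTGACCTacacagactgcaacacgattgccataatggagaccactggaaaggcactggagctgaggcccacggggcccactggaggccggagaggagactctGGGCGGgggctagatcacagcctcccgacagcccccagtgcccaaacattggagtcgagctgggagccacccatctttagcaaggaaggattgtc
Hoxa10, upstream start, chr6:52240805-52241104, minus strand: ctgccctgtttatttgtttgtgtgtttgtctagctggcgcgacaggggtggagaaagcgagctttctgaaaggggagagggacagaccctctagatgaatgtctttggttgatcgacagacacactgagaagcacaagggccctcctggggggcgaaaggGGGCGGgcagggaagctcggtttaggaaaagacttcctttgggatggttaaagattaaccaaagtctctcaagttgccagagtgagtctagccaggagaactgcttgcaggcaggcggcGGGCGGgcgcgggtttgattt
Hoxa10, downstream start, chr6:52234890-52235189, minus strand: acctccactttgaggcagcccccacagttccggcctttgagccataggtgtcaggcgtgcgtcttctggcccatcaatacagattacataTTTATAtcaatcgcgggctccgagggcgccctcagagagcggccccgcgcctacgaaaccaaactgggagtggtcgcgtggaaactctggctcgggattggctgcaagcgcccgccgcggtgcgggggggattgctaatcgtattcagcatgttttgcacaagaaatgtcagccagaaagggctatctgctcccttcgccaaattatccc
The motifs were searched on both strands and did not overlap one another in these windows. They were TGATNNAT for PBX with HOX, TGACAG for MEIS, AGGTCA for the core site of nuclear receptors, TATAAA for the TATA box and GGGCGG for the GC box. AGGTCA stood in 7 of the 24 Hox windows and in 16.3% of all 32851 promoter windows, and it marks Hoxa5 and, on the opposite strand, Hoxc4. GGGCGG stood in 10 of 24 and in 35.7% of all, and it marks Hoxc4 and the upstream start of Hoxa10. TATAAA stood in 4 of 24 and in 13.6% of all, and it marks the downstream start of Hoxa10 on the opposite strand. TGATNNAT stood in 4 of 24 and in 8.85% of all, TGACAG in 2 of 24 and in 19.2% of all, and neither stood in the printed windows. The median number of CpG dinucleotides was 14.5 in the Hox windows and 7 in all windows. These matches are descriptions of letters in a window.

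The Hox clusters also hold microRNA genes, which encode short RNAs that repress messages, Hox messages among them. Their mature forms are shown because both families recur between the clusters, with the seed (bases 2 to 8) in capitals.
miR-10a-5p, in cluster B: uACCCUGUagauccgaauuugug
miR-10b-5p, in cluster D: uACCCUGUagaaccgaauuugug
miR-196a-5p, in clusters B and C: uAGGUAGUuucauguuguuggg
miR-196b-5p, in cluster A: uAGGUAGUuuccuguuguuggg
miR-10a-5p and miR-10b-5p share the seed ACCCUGU, and miR-196a-5p and miR-196b-5p share the seed AGGUAGU. The gene of miR-196a that RefSeq places in cluster C, Mir196a-2, lies between Hoxc10 and Hoxc9.

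Most members gave weak signals. As a yardstick, the 95th percentile of 1354 olfactory and vomeronasal receptor probe sets, whose genes are largely silent outside sensory tissue, was taken on each array. It lay between 3.01 and 3.13 in WAT, between 3.54 and 3.70 in BAT and between 3.29 and 3.66 in CL, RS and RG, on the log2 scale. Of the 39 members, 4 exceeded it on all 15 arrays (10.3%, against 33.8% of all probe sets), and all 4 belong to cluster C: Hoxc4, Hoxc6, Hoxc8 and Hoxc10. A further 14 members exceeded it on no array and 21 on some. The arrays of WAT also differed from the others in range: the standard deviation over all probe sets was 1.91 to 2.00 in WAT within a span of 1.65 to 2.00, while array medians lay between 3.33 and 3.47. Within groups, the correlation between arrays was 0.945 to 0.988. Nothing in the labels says that the arrays came from separate animals, so each p-value reflects only the spread seen here, which may be technical.

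Across depots, 3 members stood apart in every array. The BAT arrays lay wholly below the 12 inguinal arrays for Hoxc8 and Hoxc10, and wholly above them for Hoxa5, whereas the ranges of the other 36 members overlapped. Among all probe sets, 2.04% had BAT wholly below and 3.61% had BAT wholly above the inguinal arrays.

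Hoxc8 patterns the thoracic region and is known as a gene more active in white than in brown fat. Its log2 values were 6.10, 5.98, 6.27 and 5.38 in WAT 1 to 4, and 4.97, 4.93 and 3.79 in BAT 1, 3 and 4. They were 5.96, 6.43 and 7.01 in CL 1, 3 and 4, 5.88 and 6.69 in RS 3 and 4, and 7.03, 7.02 and 7.34 in RG 2, 3 and 4. Every inguinal array thus exceeded every BAT array, with BAT 4 the lowest of all and RG 4 the highest. Hoxc8 was 2.58-fold lower in BAT than in WAT (log2 difference -1.37 ± 0.317, SE, n = 3 and 4, adjusted p = 0.00348 by limma). In CL, RS and RG together it was 4.18-fold higher than in BAT (2.06 ± 0.282, SE, n = 8 and 3, adjusted p = 0.000942 by limma). The order of group means was RG, 7.13 ± 0.18 (SD, n = 3), CL, 6.47 ± 0.53 (SD, n = 3), RS, 6.29 ± 0.57 (SD, n = 2), WAT, 5.93 ± 0.39 (SD, n = 4), and BAT, 4.56 ± 0.67 (SD, n = 3). Of the neighbours in that order, only WAT and BAT differed past the threshold of an adjusted p of 0.05.

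Hoxc10, which patterns the lumbar region and hind limb, had a tight spread in the inguinal arrays. Its values were 4.78, 4.71, 4.80 and 4.87 in WAT 1 to 4, and 4.19, 3.81 and 3.85 in BAT 1, 3 and 4. In CL 1, 3 and 4 they were 4.86, 5.19 and 5.18, in RS 3 and 4 they were 4.80 and 4.84, and in RG 2, 3 and 4 they were 4.93, 4.97 and 5.07. The lowest inguinal array, WAT 2, lay above the highest BAT array, BAT 1. Hoxc10 was 1.79-fold lower in BAT than in WAT (log2 difference -0.84 ± 0.142, SE, adjusted p = 0.000466 by limma) and 2.02-fold higher in CL, RS and RG together than in BAT (1.01 ± 0.127, SE, adjusted p = 0.000563). The group means ran from CL, 5.08 ± 0.19 (SD, n = 3), through RG, 4.99 ± 0.07 (SD, n = 3), RS, 4.82 ± 0.03 (SD, n = 2), and WAT, 4.79 ± 0.07 (SD, n = 4), to BAT, 3.95 ± 0.21 (SD, n = 3), and again the step from WAT to BAT was the only one between neighbours past the threshold.

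Hoxa5, a gene of the neck and upper thoracic region, showed the opposite order. Its values were 3.05, 2.49, 2.92 and 2.51 in WAT 1 to 4, and 3.98, 4.65 and 4.02 in BAT 1, 3 and 4. They were 2.98, 3.04 and 2.89 in CL 1, 3 and 4, 2.47 and 3.48 in RS 3 and 4, and 2.62, 2.12 and 2.56 in RG 2, 3 and 4. All 3 BAT arrays lay above the receptor yardstick and none of the 12 inguinal arrays did, so the inguinal values were at background level. For such a gene the fold was taken as the BAT mean against the mean, over the other arrays, of the higher of the yardstick and the gene's own value. By that measure Hoxa5 was 2.20-fold higher in BAT than in WAT (measured log2 difference 1.47 ± 0.243, SE, n = 3 and 4, adjusted p = 0.000377 by limma). It was 1.64-fold lower in CL, RS and RG together than in BAT (measured -1.42 ± 0.216, SE, adjusted p = 0.00166 by limma). The yardstick itself was 3.54 to 3.70 in BAT and 3.01 to 3.13 in WAT, so these folds hold a difference in background and are not strict lower bounds. The RefSeq span of Hoxa5 overlaps those of Hoxa3 and the antisense RNA Hoxaas3, and the array's probe positions were not used here. The calls on Hoxc8, Hoxc10 and Hoxa5 held after quantile normalization of the arrays, with log2 differences of -1.07, -0.59 and 1.41 in BAT against WAT and of 2.00, 0.99 and -1.53 in CL, RS and RG together against BAT.

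**Figure D1:**
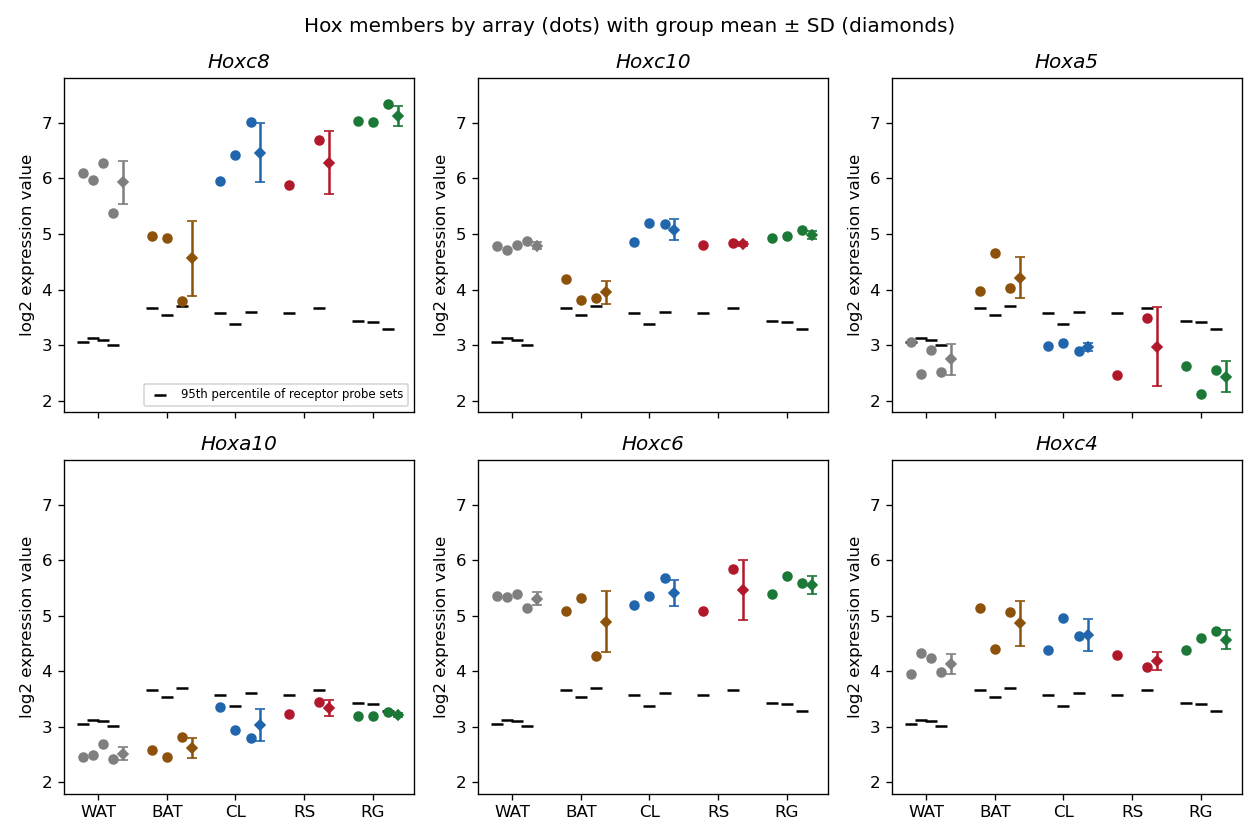
Log2 expression values of 6 Hox members on each of the 15 arrays (dots, by group), with the group mean ± SD (diamonds and bars) and each array's 95th percentile of receptor probe sets (black dashes). Hoxc8 and Hoxc10 lie lower in BAT than in every inguinal array, Hoxa5 lies higher, and the arrays of Hoxc6 and Hoxc4 overlap.

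Hoxc6 and Hoxc9, neighbours of these genes in cluster C, were not called in either comparison. Hoxc6 had 5.09, 5.31 and 4.28 in BAT 1, 3 and 4, and between 5.08 and 5.84 in the inguinal arrays, so the groups overlapped. Its difference was -0.41 (95% interval -0.91 to 0.08, adjusted p = 0.161 by limma) in BAT against WAT and 0.58 (0.14 to 1.02, adjusted p = 0.0915) in CL, RS and RG together against BAT. Without RS 3 the latter was 0.71 with an adjusted p of 0.0461, so this call rests on 1 array. Hoxc9, between Hoxc10 and Hoxc8 on the chromosome, lay between 2.71 and 3.38 on every array and exceeded the receptor yardstick on none. At that signal its level cannot be followed, and its differences of 0.31 (adjusted p = 0.111) and -0.02 (adjusted p = 0.95) did not pass the test.

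BAT against WAT asks how brown adipocytes differ from white ones of another depot. Of the 39 members, 12 were called (an adjusted p under 0.05 by limma over all probe sets), 10 higher and 2 lower in BAT. Over all probe sets 44.0% were called, 27.6% higher and 16.4% lower, so the members' share called was below the background. Of the 1354 receptor probe sets, 776 were called higher in BAT and 6 lower, so weak probe sets were often called higher. Of the 35 members not above the yardstick on all 15 arrays, 9 were called higher and 0 lower. The members higher in BAT were Hoxa2, Hoxa3, Hoxa4, Hoxa5, Hoxb4, Hoxb5, Hoxc4, Hoxc12, Hoxd12 and Hoxd13, and those lower were Hoxc8 and Hoxc10. The median log2 difference was 0.34 over the members, 0.18 over all probe sets and 0.63 over the receptor probe sets. After quantile normalization, 5 members stayed higher (Hoxa3, Hoxa5, Hoxb5, Hoxc4 and Hoxc12) and 2 lower (Hoxc8 and Hoxc10), with a background of 13.1% higher and 11.6% lower, and the median over the members fell to 0.06. Centring arrays on their medians also left 5 higher and 2 lower, but with Hoxa2 and Hoxb4 in place of Hoxa3 and Hoxb5.

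By position in the clusters, the members with paralog numbers 1 to 4 gave 5 higher and none lower of 12, those numbered 5 to 8 gave 2 higher and 1 lower of 11, and those numbered 9 to 13 gave 3 higher and 1 lower of 16. By cluster, A had 4 higher of 11, B had 2 of 10, D had 2 of 9, and C had 2 higher and 2 lower of 9. After quantile normalization the calls numbered 2 higher of 12 for paralogs 1 to 4, 2 higher and 1 lower of 11 for 5 to 8, and 1 higher and 1 lower of 16 for 9 to 13. Beside these stand 27.6% of all probe sets higher and 16.4% lower, or 13.1% and 11.6% after quantile normalization. The counts are small, and no test compared the classes.

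**Figure D2:**
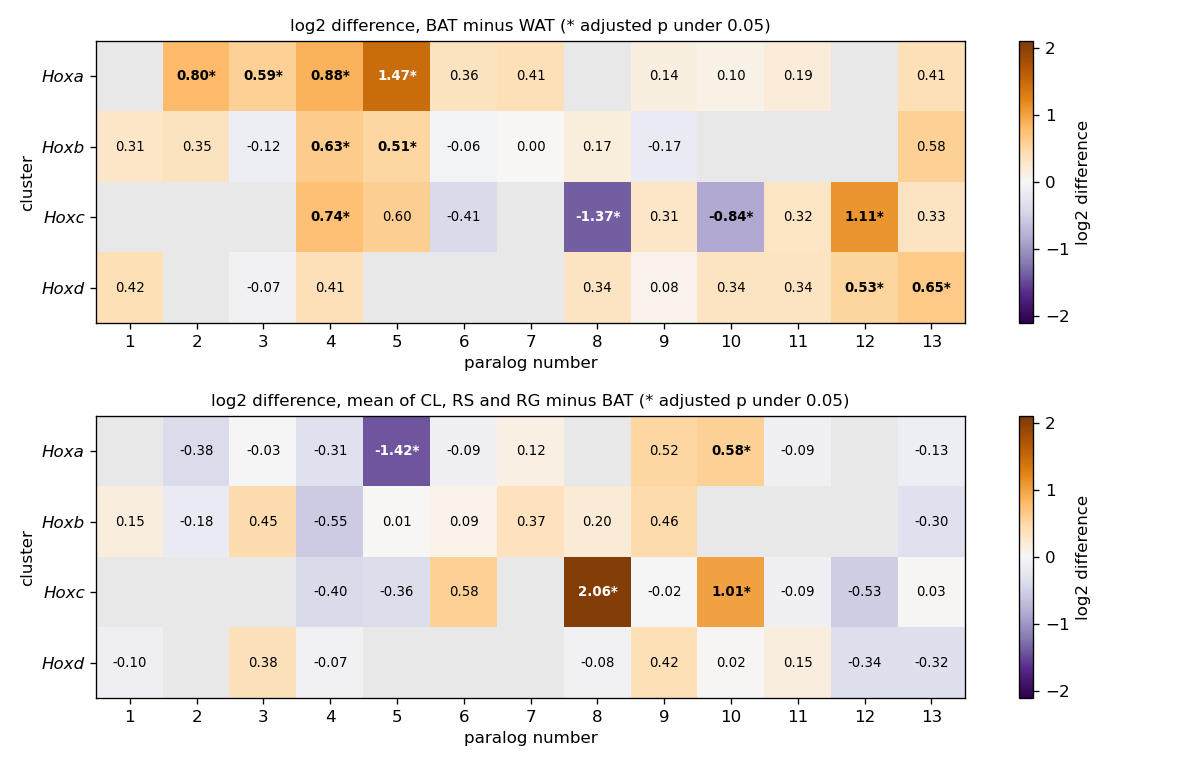
Log2 differences of Hox members by cluster (rows) and paralog number (columns) for BAT minus WAT (top) and for the mean of CL, RS and RG minus BAT (bottom); grey squares have no gene or show no value and asterisks mark an adjusted p under 0.05 by limma. The lower calls of the upper map are Hoxc8 and Hoxc10, and the lower map has 4 calls, at Hoxa5, Hoxa10, Hoxc8 and Hoxc10.

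Hoxc4, of the neck region, was the most steadily detected of the members that were higher in BAT. Its values were 3.95, 4.32, 4.23 and 3.99 in WAT 1 to 4, and 5.13, 4.40 and 5.06 in BAT 1, 3 and 4. All BAT arrays lay above all WAT arrays, by a small margin for BAT 3. The difference was 0.74 ± 0.198 (SE, adjusted p = 0.00791 by limma), or 1.02 after quantile normalization. The other inguinal arrays, between 4.07 and 4.96, overlapped BAT, and CL, RS and RG together against BAT gave -0.40 (adjusted p = 0.172), which passed the threshold only without BAT 3 (-0.63, adjusted p = 0.0478).

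Hoxc12, near the tail end of cluster C, had 2.45, 2.15, 2.01 and 2.65 in WAT 1 to 4 and 3.52, 3.74 and 3.02 in BAT 1, 3 and 4. BAT did not overlap WAT, but BAT 3 alone of the 15 arrays exceeded the receptor yardstick. Its difference was 1.11 ± 0.216 (SE, adjusted p = 0.00115 by limma), or 0.85 after quantile normalization.

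Hoxa2, which patterns the hindbrain and its neural crest, had 2.48, 2.21, 1.92 and 2.20 in WAT 1 to 4 and 3.02, 3.27 and 2.71 in BAT 1, 3 and 4. No array exceeded the yardstick, and the difference of 0.80 ± 0.199 (SE, adjusted p = 0.00534 by limma) became 0.44 (adjusted p = 0.144) after quantile normalization. Hoxa2 thus differed at background signal.

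Hoxb4 and Hoxb5, of the neck and upper trunk, also separated BAT from WAT. Hoxb4 had 3.06, 2.72, 2.99 and 2.89 in WAT 1 to 4 and 3.20, 3.63 and 3.81 in BAT 1, 3 and 4, a difference of 0.63 ± 0.191 (SE, adjusted p = 0.0154 by limma). Hoxb5 had 3.34, 3.11, 3.41 and 3.39 in WAT 1 to 4 and 3.91, 3.56 and 4.01 in BAT 1, 3 and 4, a difference of 0.51 ± 0.174 (SE, adjusted p = 0.0267). The lowest BAT array lay only narrowly above the highest WAT array in both genes. The call on Hoxb4 was lost without BAT 4 (adjusted p = 0.072) and after quantile normalization (0.47, adjusted p = 0.102), and that on Hoxb5 without any 1 of WAT 2, BAT 1 and BAT 4 (adjusted p of 0.0737, 0.0825 and 0.0994).

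The other 4 members called higher in BAT had overlapping arrays. Hoxa3 differed by 0.59, Hoxa4 by 0.88, Hoxd12 by 0.53 and Hoxd13 by 0.65. Each lost its call without any 1 of several arrays. Hoxa3 did so without WAT 1, BAT 1 or BAT 3 (adjusted p of 0.0609, 0.137 and 0.0516), and Hoxa4 without WAT 1, WAT 3, WAT 4, BAT 1 or BAT 3 (0.053 to 0.195). Hoxd12 did so without WAT 3, WAT 4, BAT 1 or BAT 3 (0.0582 to 0.106), and Hoxd13 without WAT 2, WAT 4, BAT 1 or BAT 4 (0.0518 to 0.164). Without BAT 1, 7 of the 39 members were called in all.

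**Figure D3:**
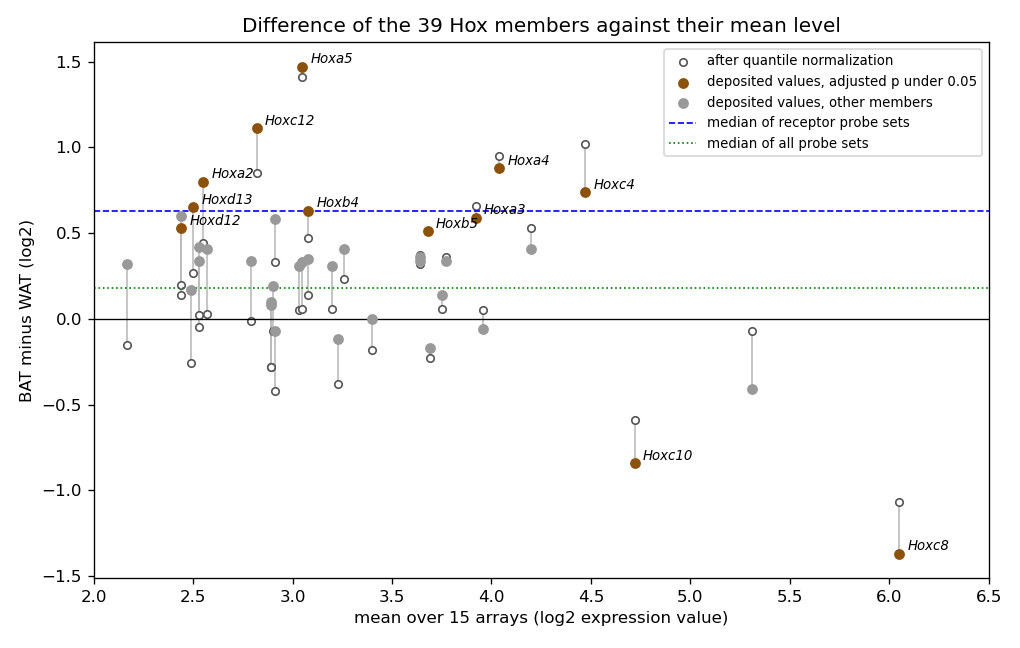
BAT minus WAT (log2) of the 39 Hox members against their mean log2 value over the 15 arrays, for the deposited values (filled, brown where the adjusted p is under 0.05) and after quantile normalization (open), with the medians of all probe sets (0.18, dotted) and of receptor probe sets (0.63, dashed). Many weak members lie between 0 and 0.63 and move towards or below 0 after quantile normalization, while Hoxc8, Hoxc10, Hoxa3, Hoxa5, Hoxb5, Hoxc4 and Hoxc12 keep their calls.

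Markers of other cells moved with this comparison. The mean log2 level of 12 stromal and preadipocyte markers was 7.04 to 8.61 in WAT and 5.46 to 5.98 in BAT, with 11 of 12 lower in BAT, and that of 11 macrophage markers was 7.40 to 8.51 against 4.91 to 5.20, with all 11 lower. On all BAT arrays 10 of the 12 stromal and 10 of the 11 macrophage markers still exceeded the receptor yardstick. Skeletal muscle markers were higher in BAT in 5 of 10 (means of 3.43 to 3.77 against 2.94 to 3.19), and in 2 after quantile normalization. Their means lay near the receptor yardstick, which 2 of the 10 exceeded on all BAT arrays. Their median difference was 0.44, below the 0.63 of the receptor probe sets. Epithelial markers were lower in 4 of 8, and none of 10 endothelial markers was called. Of all probe sets, 27.6% were higher and 16.4% lower in BAT. In CL, RS and RG the stromal mean was 5.87 to 6.88, 4.95 to 6.23 and 6.18 to 6.80. Their part in the Hox differences of BAT against WAT was not tested, and in sorted bulk samples fewer cells of a type and less RNA per cell cannot be told apart. The WAT arrays were not alike: WAT 4 had a mature adipocyte mean of 7.89 against 9.22 to 9.65 in WAT 1 to 3, with the adipocyte hormone gene Adipoq at 7.85 against 9.84 to 10.47. It also had the highest macrophage mean (8.51, the others 7.40 to 7.73) and the highest stromal mean (8.61, the others 7.04 to 7.92), and it was the lowest WAT array for Hoxc8. In BAT the mature adipocyte mean was 9.47 to 9.55, with 2 of 10 markers higher than in WAT and a median of 0.48. Without WAT 4 the BAT against WAT differences were -1.55 for Hoxc8 (adjusted p = 0.00232 by limma), -0.81 for Hoxc10 (0.0017) and 1.40 for Hoxa5 (0.00126).

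CL, RS and RG against BAT set UCP1-positive cells of inguinal fat against UCP1-positive cells of brown fat, with the gate alike and the depot and treatment different. Markers of the gated cells themselves also differed: thermogenic markers had group means of 8.78 in BAT, 8.30 in CL, 6.69 in RS and 6.95 in RG, against 4.72 in WAT, and 5 of 8 were lower and none higher in CL, RS and RG together than in BAT (median -1.28). Ucp1 itself read 10.22 to 11.22 in BAT, 10.19 to 10.53 in CL, 6.05 and 8.43 in RS 3 and 4, and 7.69 to 8.88 in RG, so the RS and RG arrays lay below BAT. As the mean of the 3 group means, they gave 4 of 39 members called: Hoxc8, Hoxc10 and Hoxa10 higher and Hoxa5 lower. Over all probe sets 8.63% were called, 3.19% higher and 5.44% lower. The median log2 difference was -0.03 over the members and -0.04 over all probe sets. Of markers of other cells, none of 12 stromal (median 0.59) and none of 10 endothelial (median -0.77) was called, while 1 of 10 lymphocyte and 1 of 11 macrophage markers were higher. The endothelial array means were 6.08 to 7.08 in BAT, 6.66 to 7.66 in CL, 4.24 to 6.29 in RS and 5.14 to 6.47 in RG, and 1 of the 10 was lower than in BAT in RS and 1 in RG. The part of these markers in the Hox differences was not tested. After quantile normalization, which called 3.28% of all probe sets higher, Hoxb3 (0.61, adjusted p = 0.0453) and Hoxd3 (0.55, adjusted p = 0.0457) were called higher as well. With WAT added to the inguinal groups, an alternative chosen after seeing the data, 6 members were called, namely Hoxc8 (1.89), Hoxc10 (0.97) and Hoxa10 (0.41) higher in inguinal cells, and Hoxa5 (-1.44), Hoxb4 (-0.57) and Hoxc12 (-0.67) lower. BAT against WAT and these comparisons share the BAT arrays.

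Hoxa10, a gene of the lumbar region and hind limb that is also active in fat, had 3.36, 2.95 and 2.80 in CL 1, 3 and 4, 3.24 and 3.44 in RS 3 and 4, and 3.19, 3.19 and 3.26 in RG 2, 3 and 4. It had 2.58, 2.46 and 2.82 in BAT 1, 3 and 4 and 2.46, 2.50, 2.69 and 2.43 in WAT 1 to 4. BAT 4 overlapped CL 4, and no array of any group exceeded the receptor yardstick. The difference of CL, RS and RG together from BAT was 0.58 ± 0.14 (SE, adjusted p = 0.0218 by limma). Hoxa10 lost this call without BAT 1 (adjusted p = 0.0718) or BAT 3 (adjusted p = 0.0795), and with the replicate number as a block (adjusted p = 0.113). Unlike Hoxc8, Hoxc10 and Hoxa5, it had no called difference between BAT and WAT (0.10, 95% interval -0.23 to 0.43).

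Group by group, Hoxc8 was higher than in BAT by 1.90 ± 0.339 in CL (adjusted p = 0.0149), 1.72 ± 0.379 in RS (0.0244) and 2.57 ± 0.339 in RG (0.000597), all SE and by limma. Hoxc10 was higher by 1.13 ± 0.152 in CL (0.00509), 0.87 ± 0.17 in RS (0.0137) and 1.04 ± 0.152 in RG (0.00115). Hoxa5 was lower by -1.25 ± 0.259 in CL (0.0265), -1.24 ± 0.29 in RS (0.0306) and -1.78 ± 0.259 in RG (0.00114). These 3 members were called in each group. The counts were 4 of 39 in CL (background 2.05%), 4 in RS (3.67%) and 7 in RG (14.3%). The fourth member in CL was Hoxb3, a gene of the hindbrain and neck, higher by 0.83 (adjusted p = 0.047), and in RS it was Hoxa10, higher by 0.72 (adjusted p = 0.0467). RG added Hoxa10 (0.59) higher and Hoxa2 (-0.68), Hoxb4 (-0.88) and Hoxc12 (-0.75) lower.

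Calls in the small groups depended on single arrays. In RS, Hoxc10 lost its call without RS 3 (adjusted p = 0.0585), Hoxa5 without RS 3 or BAT 3 (0.232 and 0.0835), Hoxc8 without RS 4 or BAT 4 (0.128 and 0.0592), and Hoxa10 without any 1 of RS 3, RS 4, BAT 1 and BAT 3 (0.0872 to 0.163). Without RS 3 only 1 of the 39 members was called. In CL, Hoxa5 lost its call without BAT 3, CL 1, CL 3 or CL 4 (0.0642 to 0.0724) and Hoxb3 without BAT 1, BAT 3, BAT 4, CL 1 or CL 4 (0.0841 to 0.141), which left 2 members at the lowest. In RG, Hoxa2, Hoxa10 and Hoxc12 lost theirs without any 1 of BAT 1, BAT 3, RG 2, RG 3 and RG 4 (0.0609 to 0.149), and Hoxb4 without RG 3 (0.0512), which left 3 members at the lowest. Hoxc8 and Hoxc10 in CL and in RG, and Hoxa5 in RG, kept their calls without any 1 array.

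The inguinal UCP1-positive groups were also set against WAT, the UCP1-negative cells of the same depot, where depot is shared and gate and treatment cross. No member was called lower in CL, RS or RG. CL had 8 of 39 members higher (background 15.2% higher), RS 7 (11.1%) and RG 2 (5.19%). Of the 1354 receptor probe sets, 481 were called higher in CL, 339 in RS and 111 in RG, so weak probe sets were often called higher here. The median differences were 0.36, 0.39 and 0.23 over the members, 0.13, 0.13 and 0.10 over all probe sets, and 0.48, 0.44 and 0.27 over the receptor probe sets. The background called lower was 9.97%, 10.3% and 6.24%. Markers of other cells moved here as well. All 11 macrophage markers were lower than in WAT in each of the 3 groups. In CL, RS and RG respectively, 7, 10 and 4 of 12 stromal markers, 0, 6 and 2 of 10 endothelial markers and 5, 0 and 2 of 8 epithelial markers were lower. Higher were 4, 6 and 1 of 10 skeletal muscle markers and 1, 3 and 6 of 10 mature adipocyte markers. With quantile normalization these became 1, 1 and 1 skeletal muscle markers and 2, 1 and 3 mature adipocyte markers. The part of these shifts in the Hox values was not tested. After quantile normalization 4, 3 and 2 members were higher, with 6.36%, 4.57% and 3.84% of all probe sets called higher. In CL these were Hoxa9, Hoxb3 and, not called in the deposited values, Hoxc4 (0.67, adjusted p = 0.0416) and Hoxc10 (0.51, adjusted p = 0.0344).

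Hoxa10 was the member called in all 3 of these comparisons, higher by 0.52 ± 0.157 in CL (adjusted p = 0.0273 by limma), 0.82 ± 0.178 in RS (0.00668) and 0.69 ± 0.157 in RG (0.0127). Every array of the 3 groups lay above every WAT array, though below the yardstick. The 3 comparisons share the WAT arrays, and the differences after quantile normalization were 0.29 (adjusted p = 0.25), 0.60 (0.0471) and 0.55 (0.0451). Hoxa10 lost its call in CL without WAT 1, WAT 2, WAT 4 or CL 1 (0.0563 to 0.134), in RS without RS 4 (0.0559) and in RG without RG 4 (0.0575).

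Hoxa9, the neighbour of Hoxa10, was 2.18-fold higher in CL than in WAT (log2 difference 1.13 ± 0.26, SE, adjusted p = 0.00728 by limma; 1.12 after quantile normalization). Its values were 4.57, 4.61 and 4.26 in CL 1, 3 and 4, and 3.22, 3.29, 4.03 and 2.88 in WAT 1 to 4. CL did not overlap WAT, and the call held without any 1 array. BAT had 3.55, 3.37 and 3.57, RS 3.85 and 3.59, and RG 3.81, 3.31 and 4.40. The other members higher in CL were Hoxa3, Hoxb3, Hoxb5, Hoxb8, Hoxd9 and Hoxd11, with differences of 0.41 to 0.71. Of these, Hoxb8 and Hoxd11 exceeded the receptor yardstick on no array. Hoxd11 kept its call without any 1 array, but lost it after quantile normalization (0.42, adjusted p = 0.065 by limma). Hoxa3 lost it without WAT 1, WAT 2, WAT 3, CL 1 or CL 4, Hoxb3 without CL 1 or CL 4, Hoxb5 without WAT 2 or CL 3, Hoxb8 without any 1 of 6 arrays (all but WAT 4), and Hoxd9 without WAT 4, CL 1 or CL 3, at adjusted p-values of 0.0523 to 0.158.

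In RS the members called besides Hoxa10 were Hoxa2, Hoxb5, Hoxc12, Hoxc13, Hoxd11 and Hoxd12, with differences of 0.48 to 0.94. Of these, Hoxa2, Hoxd11 and Hoxd12 exceeded the receptor yardstick on no array, and Hoxc12 and Hoxc13 on 1 of the 15 arrays each. Only Hoxb5 and Hoxc13 among them stayed called after quantile normalization. Without RS 4 only 1 member stayed called, which was Hoxb5, and Hoxb5 in turn lost its call without RS 3 (adjusted p = 0.0788). Hoxb5 had 4.28 and 4.01 in RS 3 and 4 against at most 3.41 in WAT, a difference of 0.83 ± 0.198 (SE, adjusted p = 0.0104 by limma). Hoxb13, the most tailward gene of cluster B, had 2.76 in RS 3 and 4.13 in RS 4, the highest of the 15 arrays, so its RS mean rests on 1 array.

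In RG the second member called was Hoxc8, 2.29-fold higher than in WAT (log2 difference 1.20 ± 0.317, SE, adjusted p = 0.0255 by limma), with all 3 RG arrays above all 4 WAT arrays. This call was lost without any 1 of WAT 2, WAT 4, RG 2, RG 3 and RG 4, at adjusted p-values of 0.0509 to 0.104, while the difference stayed between 1.01 and 1.25 in those fits. The corresponding differences were 0.53 (95% interval -0.14 to 1.21) in CL and 0.35 (-0.41 to 1.12) in RS, and neither passed the test.

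**Figure D4:**
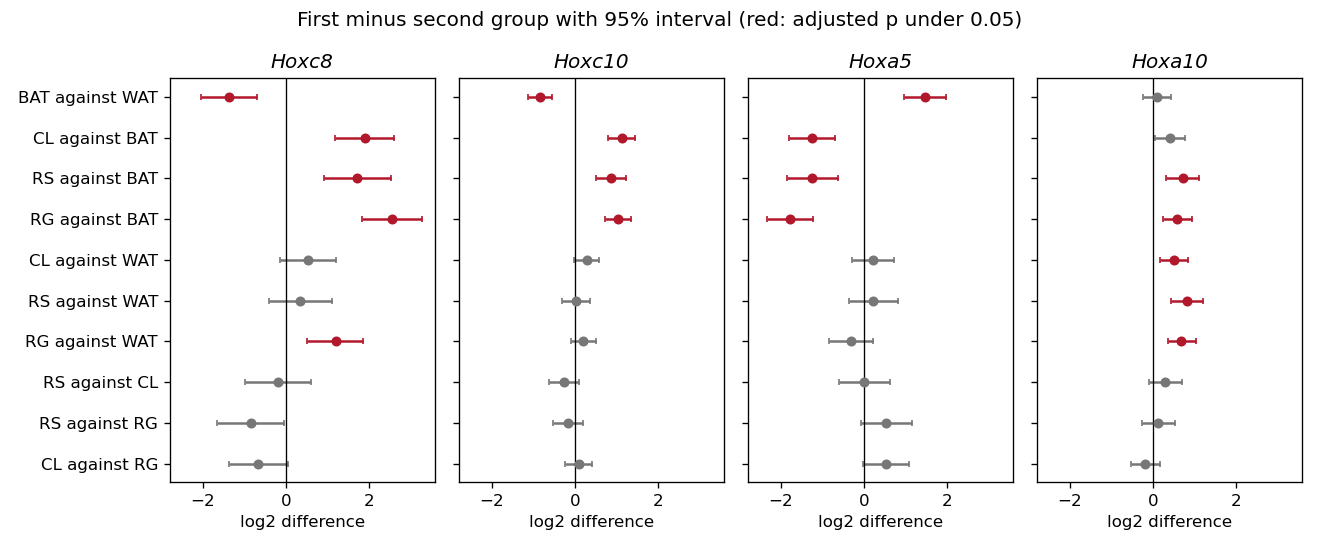
Log2 differences with 95% intervals for Hoxc8, Hoxc10, Hoxa5 and Hoxa10 in 10 comparisons of group means (first minus second group; red, adjusted p under 0.05 by limma). The first 3 separate BAT from WAT, CL, RS and RG with no interval across 0, and Hoxa10 separates CL, RS and RG from WAT.

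Between the treatments no Hox member was called. By limma, RS against CL, RS against RG and CL against RG each gave 0 of 39. Of all probe sets, 1.27%, 0.682% and 2.87% were called. An unadjusted p under 0.05 was reached by 6, 12 and 7 members, beside 4359, 4676 and 4896 of all 25206 probe sets. For Hoxc8 the differences were -0.18 (95% interval -0.99 to 0.62) in RS against CL, -0.85 (-1.65 to -0.04, adjusted p = 0.248) in RS against RG and -0.66 (-1.38 to 0.06) in CL against RG, so differences of over 1 log2 unit in favour of RG lie within the intervals. For Hoxc10 the intervals were -0.62 to 0.11, -0.53 to 0.19 and -0.24 to 0.41. For Hoxa5 they were -0.61 to 0.62, -0.07 to 1.16 and -0.01 to 1.09. Leaving out RS 3 gave 1 call, Hoxb13 in RS against RG (1.55, adjusted p = 0.0288), and leaving out CL 3 gave 1 call, Hoxb3 in CL against RG (0.98, adjusted p = 0.0237). Without RS 3 the RS group is RS 4 alone, which is then assumed to vary like the other groups.

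Other genes of the pathway were counted in the same fits. Of 9 cofactors with a TALE homeodomain, none was higher and 4 were lower in BAT than in WAT (16.4% of all probe sets lower, 11.6% after quantile normalization), with a median of -0.53. Among them were Meis2 (-0.65) and Meis1 (-0.53), partners of Hox proteins on DNA, and Pknox1 (-0.72), a relative of the MEIS proteins. After quantile normalization only Pknox1 stayed called (-0.75, adjusted p = 0.0301 by limma), and without BAT 3 the count was 1. Against BAT, CL, RS and RG together had none of the 9 called by limma (8.63% of all probe sets), with a median of 0.27. An unadjusted p under 0.05 was reached by 0 of the 9 and by 6488 of all 25206 probe sets.

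Of the non-coding RNAs and neighbours of the clusters, 19 of 26 were measured, and 3 of the 19 exceeded the receptor yardstick on all 15 arrays. In BAT against WAT 10 were higher and none lower (27.6% of all probe sets higher, 13.1% after quantile normalization), with a median of 0.61, close to the 0.63 of the receptor probe sets, and 4 stayed higher after quantile normalization. They included Mtx2, a mitochondrial import gene beside cluster D (1.59, adjusted p = 2.91e-05 by limma), Evx2, the homeobox gene at the end of cluster D (0.87), Hoxa11os, the antisense RNA of Hoxa11 (0.75), and Mir196a-1 (0.96). The probe sets of the genes Mir10a and Mir10b were higher by 0.81 and 0.72 in the deposited values. After quantile normalization they were higher by 0.31 (adjusted p = 0.217 by limma) and 0.20 (0.434). In RefSeq, Mir10a overlaps the span of Hoxb3, and Mir10b overlaps those of Hoxd3 and Hoxd4. The array's probe positions were not used here, so these values cannot be read as levels of the mature forms. Hotair, the long RNA of cluster C, was higher by 0.60 and, after quantile normalization, by 0.21 (adjusted p = 0.391). Mtx2 was the only one of the 19 called in CL, RS and RG together against BAT, lower by -0.89 (adjusted p = 0.00474 by limma). Of all probe sets, 8.63% were called there.

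Of 24 Polycomb and trithorax regulators of the clusters, 2 were higher and 10 lower in BAT than in WAT, beside 27.6% of all probe sets higher and 16.4% lower. The 12 calls in both directions are a share near the background of 44.0%. The median was -0.40, and 3 were higher and 5 lower after quantile normalization. Rnf2, the ubiquitin ligase of Polycomb complex 1, fell by 0.98, Phc1, another subunit of that complex, by 1.18, Kdm6a, a demethylase that removes the Polycomb mark, by 0.94, and Jarid2, a partner of Polycomb complex 2, by 0.85. For CL, RS and RG together against BAT, Phc1 (0.73, adjusted p = 0.0118 by limma) and Ring1 (0.54, adjusted p = 0.0169) were higher and none was lower. Of all probe sets, 8.63% were called in this comparison, 3.19% higher. In both directions together, the 2 of 24 are a share near that background.

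Of 23 other regional patterning factors, 4 were higher and 3 lower in BAT than in WAT, with a median of 0.21. These 7 calls are a smaller share than the 44.0% of all probe sets. Prrx1, a limb and body wall factor, differed by -2.32 ± 0.358 and Tbx15, a factor of limb and white fat depots, by -1.88 ± 0.317, while Zic1, a factor of brown fat and neural tissue, differed by 1.15 ± 0.211 and Cdx2, a tail-end regulator of Hox genes, by 0.77 ± 0.19 (all SE, adjusted p of 0.00024, 0.000444, 0.000789 and 0.00505 by limma). Only 6 of the 23 factors exceeded the receptor yardstick on all 15 arrays. The receptor probe sets had a median BAT against WAT difference of 0.63, beside the 0.77 of Cdx2. In CL, RS and RG together against BAT, Tbx15 (1.28), Prrx1 (1.09) and Tbx1 (0.57) were higher, and Zic1 (-0.64) and Tbx5 (-0.90) lower, beside 8.63% of all probe sets. That count of 5 varied between 1, without BAT 4, and 4 when single arrays were left out.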

How the data were processed

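The deposited table gives log2 values, and the submitters' processing notes list RMA, Affymetrix Expression Console and affy 1.36.1, with no order or settings. The WT Pico kit amplified 2 ng of total RNA, per the labels. The genome build and probe-set definition are not given in the sources used here. Symbols came through RefSeq from the gene number in each identifier: 23740 of 25206 probe sets got 1, 1466 none and 0 several. Some items are not reported here by name, and the counts include them. The number of arrays limits the precision.

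All 15 arrays entered a limma 3.58.1 fit in R 4.3.3 (lmFit, contrasts.fit, eBayes) of 5 group means with 10 residual degrees of freedom. P-values are two-sided and Benjamini-Hochberg adjusted over all probe sets per comparison, and 0.05 was the threshold. RS, with 2 arrays, was taken to vary like the other groups. Alternatives were median centring, quantile normalization, a minimum mean of 4, moderation with trend, the replicate number as a block, and leaving out arrays. The script was checked on simulated data. Values by array are given for members called in BAT against WAT or in CL, RS and RG together against BAT whose arrays did not overlap, which came to 8, and other Hox members may be named. Other lists give up to 4 members with the smallest p, and further ones were named after their values were seen. Members, lists and the exclusion of WAT 4 with RS 3 were chosen with earlier results of these data known. Promoters and microRNAs come from RefSeq tables on GRCm38.p6.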

Additional observations from a re-analysis of the deposited data

How the results depend on the processing

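The calls on Hoxc8, Hoxc10, Hoxa5, Hoxc12 and Hoxc4 in BAT against WAT, and on Hoxc8, Hoxc10 and Hoxa5 in CL, RS and RG together against BAT, kept their direction and stayed past the threshold in every alternative that tested them (the minimum mean left out Hoxa5 and Hoxc12). Of the 39 Hox members, 7 were called in BAT against WAT after median centring and 7 after quantile normalization. Median centring called 5192 of all 25206 probe sets higher and 4880 lower there. Quantile normalization left 4 members in CL against WAT and 3 in RS against WAT. A minimum mean of 4 kept 9693 probe sets, with Hoxa4, Hoxa7, Hoxc4, Hoxc6, Hoxc8 and Hoxc10 as the only Hox members. Of these, 4 were called in BAT against WAT and 2 in CL, RS and RG together against BAT. Each of these groups against BAT gave 2, and CL, RS and RG against WAT gave 0, 0 and 1. Shares over all probe sets are not given here for the minimum mean, the block or arrays left out. Leaving out both WAT 4 and RS 3 gave 1 in RS against BAT, 1 in RG against WAT and 1 in RS against RG.

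With the replicate number as a block, 6 members were called in BAT against WAT, 3 in CL, RS and RG together against BAT, 0, 0 and 3 in CL, RS and RG against BAT, and 2, 1 and 0 in the same groups against WAT. The labels do not say whether arrays of the same number share an animal or day. After group means were removed, the 24 pairs of same-numbered arrays all correlated negatively, between -0.881 and -0.0498. Of the 15 arrays, 0 correlated best with its own number. Correlations that all have the same sign do not show that the numbers are unrelated to the values. The block counts therefore stand beside the main ones.

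Leaving out single arrays gave 7 to 13 Hox members in BAT against WAT and 4 to 5 in CL, RS and RG together against BAT. It gave 2 to 3, 1 to 3 and 3 to 8 in CL, RS and RG against BAT, 4 to 7, 1 to 6 and 0 to 2 in the same groups against WAT, and 0, 0 to 1 and 0 to 1 in RS against CL, RS against RG and CL against RG. For the lists, BAT against WAT gave 1 to 5 cofactors, 8 to 12 cluster RNAs and neighbours, 8 to 11 Polycomb and trithorax genes and 5 to 8 regional factors, and CL, RS and RG together against BAT gave 0, 1, 1 to 3 and 1 to 4.

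In BAT against WAT, quantile normalization left 1 cofactor and 4 cluster RNAs and neighbours, the minimum mean left 2 cofactors, 2 cluster RNAs and 3 regional factors, and the block left 1 cofactor and 7 Polycomb and trithorax genes. In CL, RS and RG together against BAT, the block left 0 cluster RNAs, 0 Polycomb and trithorax genes and 0 regional factors, median centring gave 4 Polycomb and trithorax genes, and the regional factors numbered 3 after quantile normalization, 2 with the minimum mean and 3 without WAT 4 and RS 3. The near-zero difference of Hoxb5 in CL, RS and RG together against BAT (0.01) turned to -0.03 without WAT 4 and RS 3, to -0.12 without BAT 3, to -0.04 without CL 3 and to -0.03 without RS 3 or RG 2 (-0.12 to 0.10 over single arrays left out), uncalled throughout. Unless stated, the cause was not tested. The low signal of most members limits what these arrays can show of them.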
